A study of Mus musculus with 4 samples.

Results

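The lipid-associated macrophage genes are 10 genes that macrophages in lipid-rich tissue are known to express together: Gpnmb, Trem2, Tyrobp, Apoe, Lpl, Fabp4, Fabp5, Lgals3, Spp1 and Cd9. They were chosen by symbol from 55536 annotated genes, and all 10 were found and passed the filter on low counts. Their RNA was measured by polyA-selected RNA-seq in bone-marrow-derived macrophages, which are macrophages grown in culture from mouse marrow. The mice were of strain C57BL/6J, and the labels give no age or sex. All 4 libraries belong to 1 group: the cells had received 100 ng/ml lipid A for 12 h, had then spent 12 h after washout, and were collected at 0 min of a second exposure. Lipid A is the part of bacterial lipopolysaccharide that the receptor TLR4 senses; other label fields name the agent lipoprotein A. No untreated cells belong to the group, and no lipid loading is described, so a level below is not an effect of the treatment. The replicates are separate biosamples with the same donor identifier, and p-values over them measure only the spread between these libraries. In bulk RNA, fewer cells of a type and less RNA per cell cannot be told apart.

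TREM2 is a surface receptor for lipids and lipoproteins, and TYROBP (DAP12) is the adaptor through which it signals to the kinase SYK. Cells that take up lipid through this route are known to raise genes for lipoprotein handling, fatty acid transport and the lysosome. GPNMB is a membrane glycoprotein that macrophages make under lysosomal and lipid load. The name of the gene set comes from macrophages of obese fat tissue, and related sets are known from atherosclerotic plaques and from microglia around amyloid.

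Replicates 3 and 4 had 48875472 and 57126810 gene counts, against 25594340 and 27384162 in replicates 1 and 2. Each of replicates 3 and 4 was made from 4 read files and each of the other libraries from 6, per the deposited notes. Mitochondrial genes held 3.34% and 3.00% against 0.778% and 1.16% of the counts. This split of the libraries is a technical record and not a condition, and what it reflects is not known. Macrophage markers were high in every library: 8 of 8 averaged at least 100 TPM (a level scaled for transcript length and for the library's total), led by Lyz2 at 9726 ± 1479 TPM (SD, n = 4). Of 7 adipocyte markers, which matter here because Fabp4 and Lpl are also fat-cell genes, Adipoq, Plin1, Cfd, Lep and Retn were listed at 0 in every library. Only the lipase gene Lipe was above 1 TPM, at 19.2 ± 1.34 TPM (SD, n = 4). The summed adipocyte list was 18.4 and 20.97 TPM in replicates 3 and 4 against 18.1 and 19.6 TPM in replicates 1 and 2. Osteoclasts, which also express Spp1 and Gpnmb, had 3 of 8 markers at 1 TPM or more, led by Acp5 at 44.5 ± 22.7 TPM (SD, n = 4), and Calcr was listed at 0 in every library. Their summed list was 71.0 and 58.3 TPM in replicates 3 and 4 against 97.1 and 49.4 TPM in replicates 1 and 2, and its part in the levels of those genes was not tested. Of 6 megakaryocyte and platelet markers, 2 averaged at least 1 TPM, led by Pf4, a chemokine gene, at 198 ± 78.8 TPM (SD, n = 4). That list summed to 212 and 86.8 TPM in replicates 3 and 4 against 237 and 265 TPM in replicates 1 and 2, almost all of it from Pf4. Of 5 B cell markers 1 averaged at least 1 TPM, Cd79b at 3.16 ± 0.71 TPM (SD, n = 4). In 5 of 13 marker lists no gene averaged 1 TPM: those of dendritic cells, T and NK cells, mast cells, stroma and red cells.

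The sequences shown first are those on which the account of Gpnmb and Trem2 turns. The first 3 lines are exon pieces of Gpnmb on the + strand of mm10 (GRCm38), from GENCODE M21 transcripts. They hold the coding part of the last exon of the full-length transcript Gpnmb-201 (chr6:49056161-49056314), the coding part of the last exon of Gpnmb-203 (chr6:49070117-49070126), and the coding part of an exon that only the short Gpnmb-202 has among these 3 (chr6:49042269-49042312). Capitals mark the stop codon. The fourth line is the stretch that lengthens exon 4 in Trem2-202 and is absent from Trem2-201 (chr17:48351691-48351745, + strand).
Gpnmb-201: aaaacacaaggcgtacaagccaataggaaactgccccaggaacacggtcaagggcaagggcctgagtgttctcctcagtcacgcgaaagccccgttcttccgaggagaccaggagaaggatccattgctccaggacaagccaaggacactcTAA
Gpnmb-203: tctaggaTGA
Gpnmb-202: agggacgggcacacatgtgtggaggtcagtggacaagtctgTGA
Trem2-202: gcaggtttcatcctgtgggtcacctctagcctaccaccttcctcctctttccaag
The last exon of Gpnmb-201 adds 154 nt up to and with its stop codon, and that of Gpnmb-203 adds 10 nt, so the 2 transcripts encode different C-terminal ends of the protein. The exon of Gpnmb-202 reaches a stop codon within 44 nt, and the annotation lists that transcript as a target of nonsense-mediated decay. These pieces are among the letters by which a read can tell the transcripts apart at those places.

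By mean TPM the 10 genes spanned a wide range and 8 of them averaged at least 100 TPM. Gpnmb was highest, at rank 12 of all 55536 genes, followed by Apoe at rank 18 and Fabp5 at rank 25. Tyrobp, Lgals3 and Spp1 stood at ranks 57, 69 and 82. Trem2 and Lpl, at ranks 564 and 575, lay well under them, and Fabp4 (rank 2085) and Cd9 (rank 3998) were lowest. Together the 10 genes held 2.21% and 2.27% of all gene counts in replicates 3 and 4, against 1.53% and 1.63% in replicates 1 and 2. Gpnmb alone held 1.22% and 1.56%, against 0.777% and 0.879%.

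**Figure D1:**
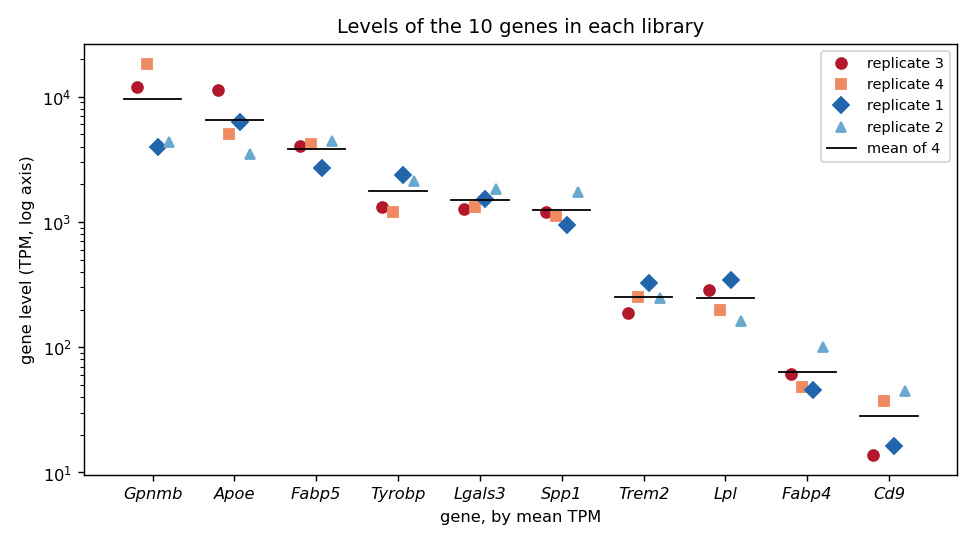
Gene level in TPM (log axis) of each of the 10 genes in replicates 3, 4, 1 and 2, one point per library, with a line at the mean. Gpnmb in replicates 3 and 4 lies above both other libraries, Tyrobp in replicates 3 and 4 lies below them, and the mean levels run from 28.1 TPM for Cd9 to 9648 TPM for Gpnmb.

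Trem2 (chr17:48346401-48354147, + strand) had 187 and 253 TPM in replicates 3 and 4, against 324 and 246 TPM in replicates 1 and 2, a mean of 253 ± 55.9 TPM (SD, n = 4). The libraries overlapped, with the lowest in replicate 3 and the highest in replicate 1. Its adaptor Tyrobp (chr7:30413760-30417585, + strand) had 1311 and 1203 TPM in replicates 3 and 4, against 2384 and 2126 TPM in replicates 1 and 2. Here the groups did not overlap, and replicates 3 and 4 were the lower pair. The adaptor exceeded the receptor in every library: log2(TPM + 1) of Tyrobp over Trem2 was 2.76 ± 0.364 (SD, n = 4), higher in 4 of 4 libraries. TYROBP also serves other receptors, so its RNA need not follow that of TREM2.

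Between the pairs of libraries, counts of Tyrobp gave a log2 fold change of -0.87 (SE 0.225) for replicates 3 and 4 over replicates 1 and 2. It did not pass edgeR's quasi-likelihood test over all genes (adjusted p = 0.0738). Of the 10 genes 0 were called in that test, where 5.8% of 11991 genes were called, 2.08% higher and 3.72% lower. At an unadjusted p below 0.05, edgeR gave 1 of the 10, Tyrobp, against 28.5% of all genes. DESeq2 called 2 of the 10, Gpnmb and Tyrobp (adjusted p = 0.0139 and 0.00724), against 14.2% of 13046 genes. With offsets for GC content and transcript length, the Tyrobp fold change was -0.49 (edgeR, adjusted p = 0.182), where 4.56% of genes were called. Without replicate 2 it was -1.07 and was called (edgeR, adjusted p = 0.0411). Trem2 had a log2 fold change of -0.60 (SE 0.253; edgeR, adjusted p = 0.186), and -0.29 with those offsets.

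**Figure D2:**
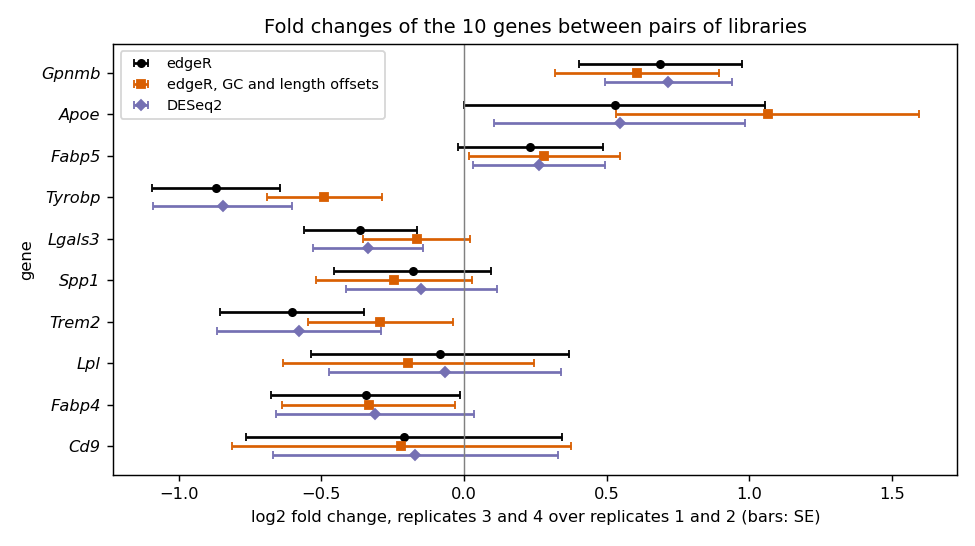
Log2 fold change of each gene, replicates 3 and 4 over replicates 1 and 2, with bars of 1 SE, from edgeR, from edgeR with offsets for GC content and length, and from DESeq2. Gpnmb lies right of 0 and Tyrobp left of it in all 3 fits, and the Tyrobp value moves to -0.49 with the offsets.

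Of the Trem2 transcripts, the coding Trem2-201 led everywhere. It held 53.8% and 54.6% of the gene's TPM in replicates 3 and 4, against 79.1% and 78.9% in replicates 1 and 2. Trem2-204, a processed transcript of 526 nt with no coding frame, held 28.1% and 27.6% against 0.0% and 1.76%. The second quantification of the same reads, in the kallisto layout, gave Trem2-204 16.8% and 22.9% against 8.39% and 8.24%, so the direction was the same and the gap smaller. Trem2-202, with the longer exon 4 printed above, was steadier at 15.1% and 15.4% against 19.6% and 16.8%. By counts in the RSEM layout Trem2-204 held less, 9.75% and 9.63% against 0.0% and 0.52%. The retained-intron Trem2-203 held 17.5% and 14.5% of the counts against 6.91% and 12.5%. Summed over protein-coding transcripts alone, Trem2 had 129 and 177 TPM in replicates 3 and 4, against 319 and 236 TPM in replicates 1 and 2, and on that measure the groups did not overlap.

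The signalling partners of the receptor were present. Of 16 genes of the TREM2-TYROBP list, 14 averaged at least 1 TPM and 14 were tested; 0 were higher and 1 was lower in replicates 3 and 4, where 2.08% of all genes were higher and 3.72% lower. The most abundant was Ptpn6, the phosphatase SHP-1, with 464 and 513 TPM in replicates 3 and 4 against 356 and 409.8 TPM in replicates 1 and 2. Ms4a4a, a membrane protein whose human relative is known to affect soluble TREM2, had 394 and 150.0 TPM against 490.2 and 272 TPM. Replicates 3 and 1 were the higher library of their pair. The 1 gene called was Hcst, the adaptor DAP10 that can pair with TYROBP, with 6.16 and 5.32 TPM against 22.1 and 17.4 TPM and a log2 fold change of -1.84 (SE 0.371; edgeR, adjusted p = 0.0496).

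Hcst lies beside Tyrobp in the genome, on the other strand with 126 bases between them (chr7:30417712-30419854, − strand), and its calls rest on 40 and 39 counts against 73 and 61 counts. The call was lost with GC and length offsets (log2 fold change -1.27; edgeR, adjusted p = 0.0856) and in the kallisto-layout counts (-1.33; edgeR, adjusted p = 0.0706). It was also lost without replicate 1, 3 or 4 (edgeR, log2 fold changes -1.48, -1.97 and -1.70; adjusted p = 0.106, 0.228 and 0.258). It was kept without replicate 2, with no filter, with the other size factors and by DESeq2 (adjusted p = 0.0445, 0.000973, 0.0491 and 0.00813). The median log2 fold change of the 14 tested genes was -0.14, against -0.01 for all tested genes.

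Gpnmb (chr6:49036546-49070929, + strand) had 11887 and 18381 TPM in replicates 3 and 4, against 3946 and 4378 TPM in replicates 1 and 2. The groups did not overlap, and with a mean of 9648 ± 6869.7 TPM (SD, n = 4) its coefficient of variation of 71.2% was the widest of the 10 genes. The counts moved far less. TMM-scaled CPM are counts scaled to the library's total after edgeR's TMM factor has adjusted that total. For Gpnmb they were 12233 and 15519 in replicates 3 and 4, against 8688 and 7923 in replicates 1 and 2. The log2 fold change was 0.69 (SE 0.287; edgeR, adjusted p = 0.184), which was not called. Leaving out each library in turn gave 0.52 to 0.86, and edgeR called none of these. DESeq2 gave 0.72 (SE 0.222) and called it.

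The gap between the scales was large for Gpnmb. Its log2 fold by TPM was 1.86 and by TMM-scaled CPM 0.74, a difference of 1.12. Only 46 of 6929 genes at 10 TPM or more (0.66%), Gpnmb among them, had a gap at least as large in the same direction. Gaps in the other direction were not counted. TPM divides counts by an effective length that depends on which transcripts the counts are assigned to, and that length was 1456 and 1203 bases for Gpnmb in replicates 3 and 4, against 2961 and 2963 bases in replicates 1 and 2. For the other 9 genes the effective lengths of the 4 libraries lay much closer together, such as 3852 and 3842 against 3845 and 3849 bases for Lpl.

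Transcript by transcript, the full-length Gpnmb-201 (3701 nt) differed far less than the gene as a whole, with 2587 and 2894 TPM in replicates 3 and 4 against 3142 and 3470.2 TPM in replicates 1 and 2. In this layout it was lower in replicates 3 and 4. The kallisto layout gave it 2385 and 2446 TPM against 2044 and 2344 TPM, but the scale of that layout differed between the pairs. Over genes at 10 TPM or more in every library, the median kallisto-layout over RSEM-layout TPM was 1.009 and 1.012 in replicates 3 and 4. In replicates 1 and 2 it was 0.759 and 0.775, so the kallisto-layout TPM do not show a different direction for this transcript. Gpnmb-204 (645 nt), annotated as a retained intron, had 299 and 2559 TPM in replicates 3 and 4 against 26.9 and 43.9 TPM. Its share of the gene's counts was 0.67% and 4.41% against 0.09% and 0.13%. In the kallisto layout it held 13.9% and 24.7% of the gene's TPM against 1.27% and 1.94%. Gpnmb-202 (365 nt) had 5485 and 8182 TPM in replicates 3 and 4 against 414 and 419.6 TPM, which was 46.1% and 44.5% of the gene's TPM against 10.48% and 9.58%. By counts the same transcript was minor, at 3.80% and 4.14% against 0.45% and 0.39% of the gene's counts. Of its 365 nt, 269 nt lie in the first 2 exons of Gpnmb-201 and 96 nt are its own.

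Counts pointed instead to Gpnmb-203 (2430 nt), the coding transcript that swaps the last exon of Gpnmb-201 for one further downstream. It took 44.1% and 46.4% of the gene's counts in replicates 3 and 4, against 6.60% and 7.27% in replicates 1 and 2. In CPM of gene counts this was 5389 and 7266 against 512 and 639, while Gpnmb-201 had 6293 and 7037 against 7203 and 8094. The kallisto layout gave Gpnmb-203 46.2% and 50.9% of the estimated counts against 15.3% and 14.0%. In that layout Gpnmb-203 led the gene's TPM in replicates 3 and 4 (37.1% and 32.2%) and Gpnmb-201 led in replicates 1 and 2 (75.4% and 76.6%). Summed over its coding transcripts, Gpnmb had 6099 and 7634 TPM in replicates 3 and 4 against 3496 and 3904 TPM in replicates 1 and 2, a log2 fold of 0.89. How the reads cover these exons was not tested.

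**Figure D3:**
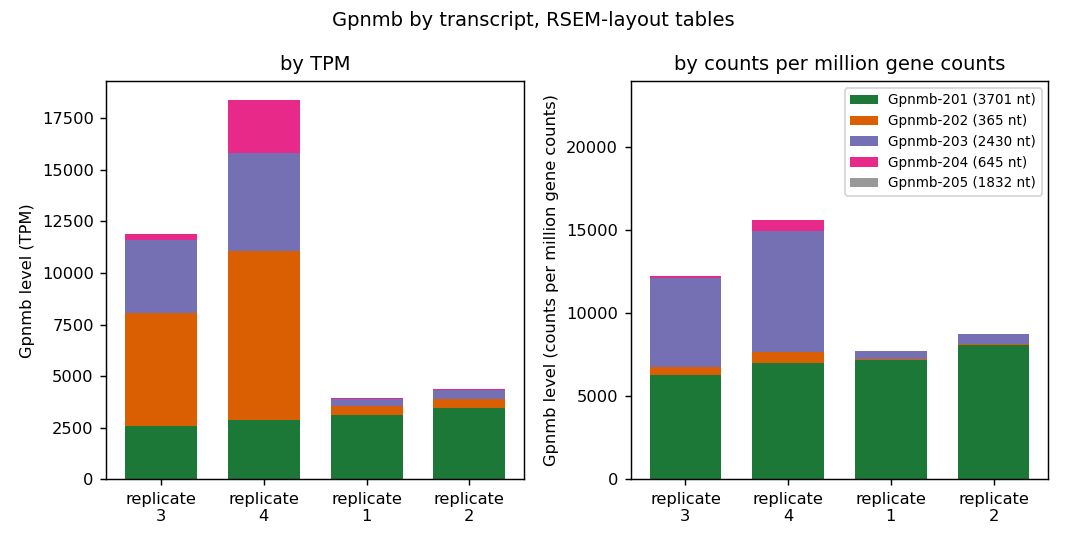
Gpnmb divided by annotated transcript in replicates 3, 4, 1 and 2: stacked TPM on the left and CPM of gene counts on the right, both from the RSEM-layout tables. Gpnmb-202 makes up 46.1% and 44.5% of the TPM bars of replicates 3 and 4 and 3.80% and 4.14% of their count bars, where Gpnmb-203 takes 44.1% and 46.4%.

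Gpnmb RNA exceeded Trem2 RNA in 4 of 4 libraries, by 4.98 ± 1.30 in log2(TPM + 1) (SD, n = 4). That ratio averaged 6.08 in replicates 3 and 4 against 3.87 in replicates 1 and 2. By TMM-scaled CPM, which uses no length, the log2 folds between the pairs were 0.74 for Gpnmb and -0.55 for Trem2, a smaller gap than by TPM. TFEB, TFE3 and MITF, the factors known to drive lysosomal genes and Gpnmb, belong with the lysosome in a list of 19 genes, all 19 of which averaged at least 1 TPM. With edgeR 0 of the 19 were called in either direction, against 5.8% of all tested genes, and the median log2 fold change was 0.03. At an unadjusted p below 0.05 edgeR gave 4 of the 19, against 28.5% of all tested genes. DESeq2 called 3 higher and 0 lower. Of 13046 genes it called 837 higher and 1011 lower, 14.2% in either direction. Psap, the precursor of saposins that help degrade lipids, had 8933 and 8942 TPM in replicates 3 and 4 against 7388 and 9645 TPM in replicates 1 and 2. Ctsd, the protease cathepsin D, had 6605 and 8822 TPM against 6809 and 8382 TPM. For both the groups overlapped. Other members did not overlap, on the same side as Gpnmb. Cd68, a lysosomal glycoprotein of macrophages named after its values were seen, had 4004 and 4504 TPM in replicates 3 and 4 against 2316 and 2487 TPM in replicates 1 and 2 (log2 fold change 0.84; edgeR, adjusted p = 0.0807). Lamp1, a lysosomal membrane protein named likewise, had 2536 and 3411 TPM against 1600.4 and 1941 TPM (0.76; edgeR, adjusted p = 0.125).

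Promoters from RefSeq (GRCm38.p6, 250 bases before to 50 after a start) were found for 6 of the 10 genes, in 9 windows. Those of Gpnmb (chr6:49036268-49036567, + strand) and Trem2 (chr17:48346151-48346450, + strand) are shown because both hold a match to the AP-1 motif TGANTCA, searched on both strands, as do 7.8% of 32851 promoters. Capitals mark the matches; in Trem2 the capitals TTCCTC are a reverse-strand match to the ETS-like motif GAGGAA, which 28.3% of promoters hold.
Gpnmb promoter: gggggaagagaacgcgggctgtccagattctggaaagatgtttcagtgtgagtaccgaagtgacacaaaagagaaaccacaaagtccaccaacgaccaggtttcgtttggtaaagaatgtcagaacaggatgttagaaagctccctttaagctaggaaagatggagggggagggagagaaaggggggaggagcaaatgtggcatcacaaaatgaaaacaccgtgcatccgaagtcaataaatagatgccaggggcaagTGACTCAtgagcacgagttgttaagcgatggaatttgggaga
Trem2 promoter: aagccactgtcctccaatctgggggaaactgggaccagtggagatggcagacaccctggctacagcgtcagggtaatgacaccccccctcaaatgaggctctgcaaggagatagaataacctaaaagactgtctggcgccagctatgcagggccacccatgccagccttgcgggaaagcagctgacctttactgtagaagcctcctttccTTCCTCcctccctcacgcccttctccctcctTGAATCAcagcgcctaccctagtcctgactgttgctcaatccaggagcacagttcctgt
In none of the 9 windows was the E-box CACGTG of TFEB and TFE3 found, which 7.2% of all promoters hold. CATGTG, a second MITF E-box (14.2% of promoters), was found in the Cd9 window alone. TATAAA (13.6% of promoters) was found in a window of Apoe and of Spp1. A match or its lack in such a window says only which letters stand there.

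Apoe encodes the apolipoprotein by which macrophages export cholesterol, and Lpl the lipase that frees fatty acids from lipoproteins. Apoe (chr7:19696109-19699188, − strand) had 11215 and 5005 TPM in replicates 3 and 4, against 6280.4 and 3497 TPM in replicates 1 and 2. Lpl (chr8:68880491-68907448, + strand) had 288 and 198 TPM against 341 and 162 TPM. In both genes replicates 3 and 1 were the high libraries of their pairs and the groups overlapped. Neither was called: the log2 fold changes were 0.53 (SE 0.527; edgeR, adjusted p = 0.549) and -0.08 (SE 0.453; edgeR, adjusted p = 0.922). Apoe changed sign without replicate 3 (-0.19), and Lpl without replicate 1 (0.73) or replicate 4 (0.18). Apoe exceeded Lpl in 4 of 4 libraries, by 4.64 ± 0.466 in log2(TPM + 1) (SD, n = 4).

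As for Gpnmb, the transcript shares of Apoe differed between the pairs of libraries. Apoe-202, a processed transcript of 728 nt with no coding frame, all of which lies within the coding Apoe-206 (1408 nt), held 80.2% and 81.4% of the gene's TPM in replicates 3 and 4, against 55.5% and 55.1% in replicates 1 and 2. The coding Apoe-209 held 0.54% and 0.03% against 31.9% and 34.5%. Both differences had the same direction in the kallisto layout, where Apoe-209 held 5.29% and 0.95% against 38.4% and 40.0%. Coding transcripts alone summed to 2203 and 926 TPM in replicates 3 and 4, against 2789 and 1567 TPM in replicates 1 and 2. The log2 fold was then -0.48, while gene TPM gave 0.73 and GC and length offsets gave 1.07 (edgeR, adjusted p = 0.245).

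**Figure D4:**
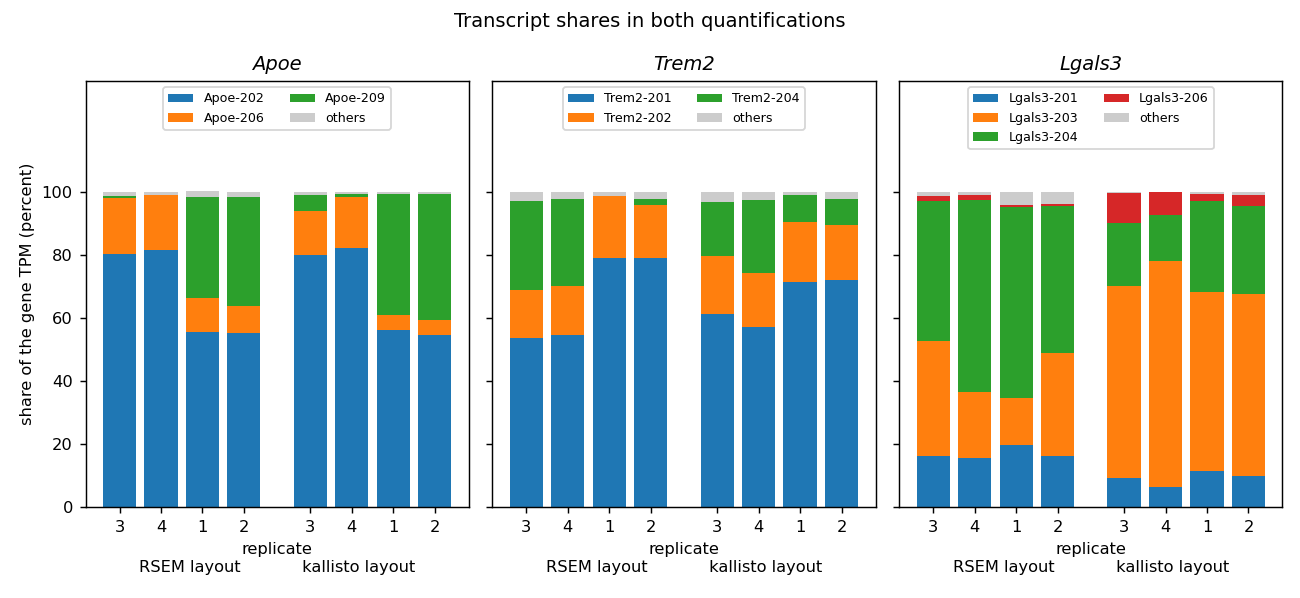
Share of each gene's TPM held by its transcripts for Apoe, Trem2 and Lgals3, in replicates 3, 4, 1 and 2, with the RSEM layout on the left of each panel and the kallisto layout on the right. Apoe-209 and Trem2-204 differ between replicates 3 and 4 and replicates 1 and 2 in both layouts, while the leading Lgals3 transcript differs between layouts.

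Of 14 lipoprotein partners, 10 averaged at least 1 TPM and 10 were tested. With edgeR 0 were called in either direction, against 5.8% of all tested genes, and the median log2 fold change was -0.20. In a list of this size, 0 calls cannot be told from that share. Lipa, the lysosomal acid lipase, had 386 and 505 TPM in replicates 3 and 4 against 339 and 387 TPM in replicates 1 and 2. Pltp, which moves phospholipid between lipoproteins, had 381 and 193 TPM against 421 and 252 TPM, again with replicates 3 and 1 the higher. Gpihbp1, the endothelial anchor of lipoprotein lipase, was listed at 0 in all 4 libraries.

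Fabp5 and Fabp4 encode related carriers of fatty acids in the cytosol, Fabp4 being the form typical of fat cells. Fabp5 (chr3:10012548-10016607, + strand) had 4039 and 4170.2 TPM in replicates 3 and 4, against 2693 and 4413 TPM in replicates 1 and 2. Replicate 1 stood below the other 3, and those 3 lay close together. Fabp4 (chr3:10204088-10208576, − strand) had 61.2 and 47.9 TPM against 45.3 and 100.5 TPM, the last from replicate 2. Fabp5 exceeded Fabp4 in 4 of 4 libraries, by 5.94 ± 0.402 in log2(TPM + 1) (SD, n = 4). Log2 fold changes were 0.23 (SE 0.253; edgeR, adjusted p = 0.582) for Fabp5 and -0.35 (SE 0.331; edgeR, adjusted p = 0.532) for Fabp4. Without replicate 2 the Fabp4 value turned to 0.21.

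Copies could share reads with Fabp5. The processed pseudogene Fabp5l2 had 0 counts in all 4 libraries, and the posterior SD that the deposited table gives for the count of Fabp5 was at most 3.84 counts, of 34015 counts or more. Fabp3, another carrier and best known from heart muscle, averaged 111 ± 62.0 TPM (SD, n = 4), and was above Fabp4 in every library but replicate 3, where it had 57.6 TPM; it was named after its values were seen. Of 18 fatty acid and droplet partners, 15 averaged at least 1 TPM and 14 were tested. With edgeR 0 were called in either direction, against 5.8% of all tested genes, and the median log2 fold change was -0.29. At an unadjusted p below 0.05 edgeR gave 4 of the 14, against 28.5% of all tested genes. DESeq2 called 2 higher and 2 lower, against 14.2% of all genes, so this list had more DESeq2 calls than that share. Plin2, the coat protein of lipid droplets in macrophages, led the list with 669 and 459.9 TPM in replicates 3 and 4 against 996 and 533 TPM in replicates 1 and 2. Nr1h3, the sterol sensor LXR alpha, had 114 and 107 TPM against 168 and 118 TPM. Replicate 1 was the highest library for both, and leaving it out turned both fold changes above 0 (0.27 and 0.05).

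Spp1 encodes osteopontin, a secreted ligand of integrins and CD44, and Lgals3 encodes galectin-3, a lectin found in the cytosol and outside the cell that gathers on damaged lysosomes. Lgals3 (chr14:47367751-47386160, + strand) had 1263 and 1323 TPM in replicates 3 and 4, against 1519 and 1846 TPM in replicates 1 and 2. The groups did not overlap, yet its coefficient of variation, 17.6%, was the narrowest of the 10 genes. Spp1 (chr5:104435118-104441050, + strand) had 1202 and 1108 TPM against 938 and 1749 TPM, so that both extremes lay in replicates 1 and 2. Lgals3 exceeded Spp1 in 4 of 4 libraries by 0.28 ± 0.292 in log2(TPM + 1) (SD, n = 4), with 0.07 as the smallest difference. Per kilobase of the longest coding transcript, Lgals3 was the higher in 2 of 4 libraries. The log2 fold change of Lgals3 was -0.36 (SE 0.198; edgeR, adjusted p = 0.285), or -0.17 with GC and length offsets, and that of Spp1 was -0.18 (SE 0.275; edgeR, adjusted p = 0.701). Gm42793, which overlaps Spp1, had at most 61 counts in a library.

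The leading transcript of Lgals3 depended on the table. In the RSEM layout Lgals3-204 led with 44.5% and 60.8% of the TPM in replicates 3 and 4, against 60.3% and 46.5% in replicates 1 and 2. In the kallisto layout Lgals3-203 led with 60.9% and 71.5% against 56.9% and 57.6%. Both carry the same number of coding bases, 792. Spp1, Fabp4, Fabp5, Lpl, Tyrobp and Cd9 were simpler: each had 1 transcript that held over 90% of the gene's TPM in every library in both layouts. Over all 10 genes, 9 had 1 leading transcript in all libraries in either layout, and 8 had the same one in both.

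Among the 18 partners of osteopontin, galectins and tetraspanins, 16 averaged at least 1 TPM and 18 were tested. With edgeR 0 were called in either direction, against 5.8% of all tested genes, and the median log2 fold change was -0.03. Here too, 0 calls cannot be told from that share. Lgals1, which encodes galectin-1, had 1225 and 1190.3 TPM in replicates 3 and 4 against 848 and 917 TPM in replicates 1 and 2. Lgals9, which encodes galectin-9, had 960.5 and 1144 TPM against 824.5 and 833 TPM. In both the groups did not overlap and replicates 3 and 4 were higher, the opposite side from Lgals3, and neither was called by edgeR (adjusted p = 0.175 and 0.340).

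Cd9 (chr6:125460266-125494791, − strand), a tetraspanin of the cell surface and of vesicles, was the lowest of the 10 genes. It had 13.7 and 37.5 TPM in replicates 3 and 4, against 16.4 and 45.0 TPM in replicates 1 and 2. Replicates 4 and 2 were the higher library of each pair, by 1.43 and 1.16 in log2 TMM-scaled CPM. The difference between the pairs was not called (log2 fold change -0.21, SE 0.555; edgeR, adjusted p = 0.830), and the sign turned without replicate 2 (0.52) or replicate 3 (0.34). The overlapping antisense gene Gm28809 had at most 26 counts in a library, and the pseudogene Cd9-ps had 0. Whether the counting used strand is not given in the sources used here.

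The within-pair pattern of Cd9 was the mirror of that of Apoe and Lpl. Replicate 4 over replicate 3 and replicate 2 over replicate 1 gave differences in log2 TMM-scaled CPM. They were -1.20 and -1.15 for Apoe and -0.56 and -1.35 for Lpl. The sign was the same in both pairs for 5 of the 10 genes, against 56.1% of all tested genes, so a shared sign is not particular to these genes. The biological coefficient of variation from edgeR, with the 4 libraries as 1 group, was 0.392 for Cd9 and 0.390 for Apoe, against abundance trends of 0.272 and 0.288. Marker lists of other cell types differed within the pairs too. The 8 neutrophil markers summed to 80.1 and 6.98 TPM in replicates 3 and 4, and to 90.5 and 14.2 TPM in replicates 1 and 2; 3 of 8 averaged at least 1 TPM, S100a9 was highest, and the defining gene Ly6g was listed at 0 in every library. The 7 endothelial markers summed to 15.6 and 32.3 TPM, and to 16.8 and 46.1 TPM, with 4 of 7 at 1 TPM or more, Kdr highest, and Cldn5 listed at 0. The sum was carried by Kdr and Vwf, which were higher in replicates 4 and 2, while Pecam1 was higher in replicates 3 and 1. Their part in the values of Apoe, Lpl and Cd9 was not tested.

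**Figure D5:**
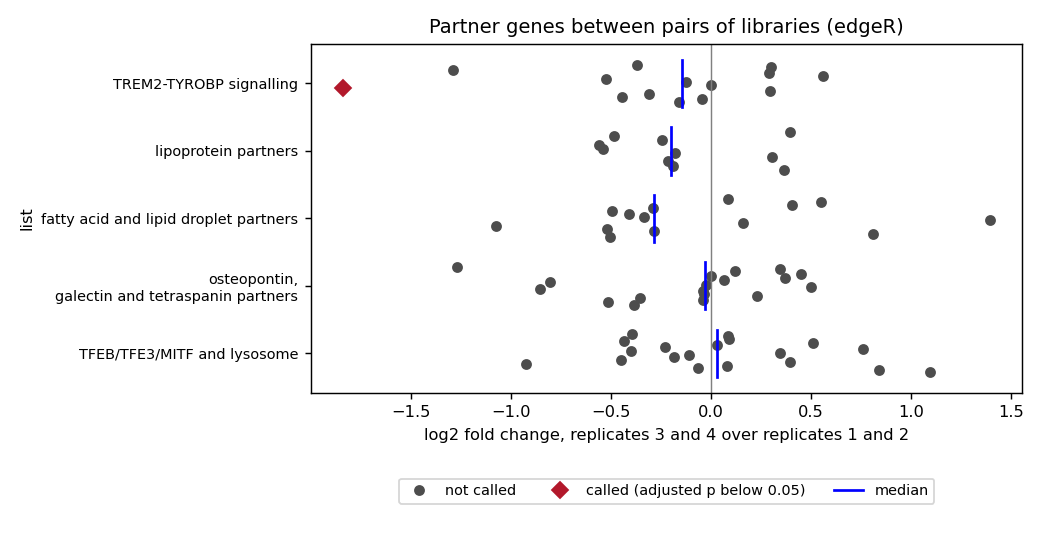
Log2 fold change, replicates 3 and 4 over replicates 1 and 2, of the 75 tested partner genes in 5 lists (edgeR); each point is a gene and the blue line is the list median. The 1 called gene, Hcst at -1.84, is the diamond, and the medians lie between -0.29 and 0.03.

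Over the 5 partner lists, 74 of 85 genes averaged at least 1 TPM and 75 were tested. With edgeR 0 were higher and 1 was lower, where 5.8% of all genes were called. At an unadjusted p below 0.05 edgeR gave 16 of 75, against 28.5% of all genes, and DESeq2 called 6 higher and 3 lower, against 14.2% called of all genes. None of these shares exceeded that over all genes. Among the 10 genes themselves 3 log2 fold changes were above 0 and 7 below, with a median of -0.20. In TMM-scaled CPM the pairs of libraries did not overlap for 5 of the 10 genes, Gpnmb, Fabp5, Tyrobp, Lgals3 and Trem2, where 58.7% of all tested genes did not overlap. In TPM this held for 3 of the 10, Gpnmb, Tyrobp and Lgals3, against 56.5% of all tested genes. A count of 5 or 3 is thus no more than the share found over all genes.

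Some steps in the order of levels did not exceed the spread between libraries. Of the 9 pairs of neighbours, 5 had the same sign in all 4 libraries: Fabp5 over Tyrobp, Lgals3 over Spp1, Spp1 over Trem2, Lpl over Fabp4, and Fabp4 over Cd9. Gpnmb over Apoe, Apoe over Fabp5 and Tyrobp over Lgals3 held in 3 of 4 libraries, and Trem2 over Lpl in 2 of 4. The exact two-sided sign-flip permutation test cannot give a p below 0.125 with 4 libraries. The 5 steady steps were at that value (0.225 after Benjamini-Hochberg adjustment over the 9). The neighbours were taken from the mean TPM of these same libraries, so their p-values are no independent test of the order. All 6 pairs by role had the same sign in 4 of 4 libraries, with an exact permutation p of 0.125 that adjustment over the 6 left at 0.125. The widest of them was Cd9 over Gpnmb, at -8.24 ± 1.34 in log2(TPM + 1) (SD, n = 4).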

How the data were processed

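PolyA-selected RNA was measured in 4 libraries of 1 group, with 25594340 to 57126810 gene counts. Per the file headers, the deposited gene and transcript tables hold expected counts (not normalized), TPM scaled within each library, and a posterior SD of the count (a score); a second transcript table holds estimated counts and TPM. No source names the programs, so RSEM and kallisto stand here for column layouts only. Per the deposited notes, the authors used mm10 and GENCODE M21, starting from a transcriptome alignment for the first tables and from reads for the second.

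Left out were 26248 tRNA and 97 spike-in rows. Expected counts were rounded and fitted over all genes in R 4.3.3 by edgeR 4.0.16 (TMM, filterByExpr without groups, minimum count 10, quasi-likelihood F test, Benjamini-Hochberg threshold 0.05), replicates 3 and 4 over replicates 1 and 2. The SE is the fold change over the square root of F. DESeq2 1.42.0 was the alternative tool. The edgeR fit was tested on simulated data. Pairs of genes were compared as the difference of log2(TPM + 1) within each library, tested by exact sign-flip permutation. A count of 0 allows 3 counts, 0.0525 to 0.117 CPM, for counting error only. The split follows the number of read files in the notes. Alternatives were other scalings, filters, offsets, quantifications and leaving out each replicate; sums over coding transcripts and counts per kilobase were added after the data were seen.

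The 10 genes and all lists were chosen with earlier results of these data known. Named are the 10 genes, the 2 members of highest mean TPM and any called member of each partner list, the highest marker of a list, and copies; Fabp3, Gpihbp1, Cd68, Lamp1, Vwf, Pecam1 and the markers at 0 were named after their values were seen. The leading marker of 1 list is not reported here. Other steps used scipy 1.17.1, matplotlib 3.10.9, numpy 2.4.6 and pandas 2.3.3 under Python 3.11.15.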

Additional observations from a re-analysis of the deposited data

Results flagged for a closer look

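Fabp5 in replicate 1 stood apart from the other libraries. It had 1329 CPM there, without TMM scaling (counts scaled to the library's total alone). The gap to the nearest library was 0.881 of the whole range over the 4, above Dixon's critical value at the 95% level. Chance gives such a gap in about 1 of 20 groups, and the other 9 genes did not pass the same rule. The flag did not hold on the other scales. By TMM-scaled CPM replicate 1 had 1487 against 2000, 2113 and 2142 in replicates 2, 3 and 4. There, and by TPM, the gap was a part of the range below that critical value.

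Spike-in rows lie outside the gene counts. All of their counts fell on phiX174, a control that sequencing runs carry, with 20989 and 23921 counts in replicates 3 and 4 and 32827 and 34059 counts in replicates 1 and 2. Scaled to a library's gene counts, this was 429 and 419 against 1283 and 1244 CPM.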

How the results depend on the processing

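No paired analysis was possible because the series has 1 group. Of the 10 genes, 0 were called by edgeR in the comparison of replicates 3 and 4 with replicates 1 and 2; 1 was called with no filter on low counts, 2 by DESeq2, and 0 to 1 when each library was left out in turn. Of the partner genes 1 was called; the count was 12 with no filter, 9 with DESeq2, 0 with GC and length offsets, 0 in kallisto-layout counts and 0 to 7 when each library was left out. Over all genes edgeR called 0 without replicate 3 or 4, so those fits test little; with no filter it called 11.7% of genes and with the offsets 4.56%. Leaving out each library gave log2 fold changes of -0.19 to 1.21 for Apoe, -0.60 to 0.73 for Lpl, -0.73 to 0.21 for Fabp4, -0.45 to 0.18 for Spp1 and -1.08 to 0.52 for Cd9, which thus turned sign, and of -1.40 to 0.15 for Ms4a4a, -0.83 to 0.33 for Pltp, -0.99 to 0.27 for Plin2, -0.75 to 0.05 for Nr1h3 and -0.13 to 0.28 for Ctsd. Ctsd was also turned in kallisto-layout counts (-0.002). The steps in the order of levels were less firm than the pairs by role, none of which turned in its mean; per kilobase of the longest coding transcript 5 of 6 kept 1 sign in all libraries. Gpnmb over Apoe was -0.17 within replicates 1 and 2 and -0.088 to 0.761 with a library left out. Apoe over Fabp5 was -1.12 by coding transcripts and -0.09 per kilobase of the longest coding transcript. Tyrobp over Lgals3 was -0.094 by kallisto-layout TPM, -0.042 within replicates 3 and 4 and -0.066 per kilobase. Trem2 over Lpl was -0.006 by kallisto-layout TPM, -0.13 within replicates 3 and 4, -0.21 by coding transcripts, -0.23 per kilobase and -0.11 to 0.292 with a library left out. The causes were not tested. At the depth of these libraries Cd9 had 272 counts or more, so counting error is small beside the spread between libraries.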
